A study of Rattus norvegicus with 12 samples.

Results

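The 8 infarcted hearts of this rat series were compared with each other by their ejection fraction (EF), the share of blood that the left ventricle expels with each beat. They are 8 of the 12 hearts sequenced, 4 with myocardial infarction given vehicle (MI; rats 36, 57, 61 and 89) and 4 with myocardial infarction given urolithin A (MI + UA; rats 29, 58, 64 and 66), and were chosen by their sample labels. All were male Wistar rats, 7 weeks old at surgery, whose left anterior descending coronary artery was ligated permanently. UA, a gut microbial metabolite that boosts mitophagy, or a vehicle of 0.5% carboxymethylcellulose was given daily by gavage. The sources differ on the dose and on the start of dosing. RNA came from formalin-fixed, paraffin-embedded sections of the middle region of the heart, 1 library per rat, so scar and surviving myocardium were sequenced together and p-values measure the spread between rats. How much scar each section held is not given in the sources used here.

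EF was read by echocardiography at the end of dosing. Each heart was matched to the study's echocardiography record by rat number, and EF entered the fits as a number. M-mode EF follows wall motion along 1 line through the ventricle, and B-mode EF, from the same examination, uses the 2-dimensional image. Slopes are given on the log2 scale per 10 percentage points of M-mode EF unless B-mode is named. The hearts of neither treatment spanned 10 points, so a slope within treatment is steeper than the change seen among those hearts. Single values are CPM, read counts scaled to a common library total after TMM normalization. They are listed in rising order of EF, for rats 36, 61, 57 and 89 in MI and for rats 66, 29, 58 and 64 in MI + UA.

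EF and treatment could not be separated in M-mode. In 16 of 16 pairs of an MI + UA and an MI heart, EF was higher in MI + UA, and the gap between the treatments was 31.3% of the whole range. The MI hearts covered 34.9% of that range and the MI + UA hearts 33.8%. A slope over 8 hearts therefore cannot be told apart from a difference between treatments, no correlation over the 8 hearts is given, and the fits with and without treatment are set side by side. Rat 66 has the lowest EF of its labelled group. Its sample label gives UA, while the echocardiography record lists it with the vehicle-treated MI rats. It was counted as MI + UA, and results are also given without it and with it counted in MI. In B-mode 14 of 16 pairs had MI + UA higher, and the order changed, with rats 89, 64 and 58 the 3 highest.

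Reads on genes numbered 12743184, 8456265, 6829591 and 11506241 in MI and 19031695, 17382116, 6819444 and 7060389 in MI + UA, so the 2 hearts of highest EF were among the 3 shallowest libraries. Mitochondrially encoded genes took 53.0, 50.2, 57.6 and 53.0% of these reads in MI and 56.8, 54.7, 50.2 and 54.0% in MI + UA. Cardiomyocyte markers fitted the tissue label, with a summed level over 9 genes between 38306 and 51801 CPM, while 6 lymphocyte markers summed to at most 5.21 CPM. The atria had been removed, and the atrial light chain Myl7 reached at most 10.8 CPM, in rat 89. Over the 17713 genes with at least 10 counts in total, the median slope was -0.0026 over 8 hearts and -0.031 within treatment.

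After a coronary artery is closed, dead muscle is cleared by neutrophils and by monocytes that become macrophages, and fibroblasts then lay down a collagen scar. Macrophages of a healing scar are known for osteopontin (Spp1), Gpnmb, galectin-3 (Lgals3), lysozyme (Lyz2) and the elastase Mmp12. Surviving cardiomyocytes under load turn on genes of the fetal heart, such as the slow myosin Myh7 and the natriuretic peptides Nppa and Nppb, and lower the fast adult myosin Myh6, which is why these genes serve as markers of heart failure.

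Among hearts of the same treatment, Lyz2, Spp1, Mmp12 and Rassf4, genes of myeloid and scar tissue, rose with EF. In the fit with treatment and EF, 7 of 17713 genes passed an adjusted p of 0.05, or 0.0395%, 6 with a positive (0.0339%) and 1 with a negative slope (0.00565%). Without adjustment 1315 genes passed, or 7.42%, of which 787 were positive (4.44%) and 528 negative (2.98%). The 6 were Lyz2, Spp1, Rassf4, Mmp12, Mmp3 and Ighg1. In each of them the highest MI heart was that of rat 89, the MI rat of highest EF, and the highest MI + UA heart was that of rat 58 or 64. That order goes with a positive slope, on which these genes were called, and 14% of all genes tested showed it. With rat 66 counted in MI, 0 genes passed the adjusted threshold in edgeR's test, 578 passed without adjustment, and the median slope within treatment changed sign in 32 of 50 gene lists. Where a list's median slope within treatment is printed below, its median under that count is given too.

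Lyz2 (ENSRNOG00000005825), which encodes the lysozyme of macrophages and neutrophils, was at 112, 130.1, 107.9 and 230.1 CPM in the MI hearts and 84.2, 141, 218 and 238 CPM in the MI + UA hearts. Rats 89, 58 and 64 stood above the other 5 hearts. Its slope within treatment was 2.80 (SE 0.29, edgeR adjusted p = 0.00102), which is a fitted rise of 1.32 (SE 0.14) on the log2 scale from the lowest to the highest EF in MI and of 1.28 (SE 0.13) in MI + UA. Over 8 hearts without treatment in the fit the slope was 0.52 and the 2 treatments covered about the same levels.

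Spp1 (ENSRNOG00000043451), the secreted phosphoprotein osteopontin, was at 20.5, 24.7, 8.95 and 63.6 CPM in the MI hearts and 14.9, 26.3, 79.8 and 85.0 CPM in the MI + UA hearts. The same 3 hearts were above every other heart. Its slope was 4.87 (SE 0.68, edgeR adjusted p = 0.0187), with a fitted rise of 2.29 (SE 0.32) over the MI hearts and of 2.22 (SE 0.31) over the MI + UA hearts. Mmp12 (ENSRNOG00000030187), a macrophage protease that cleaves elastin, was at 0.916, 2.06, 0.326 and 16.3 CPM in the MI hearts and 2.87, 0.414, 19.1 and 46.5 CPM in the MI + UA hearts. It had the steepest slope given here, 9.86 (SE 1.48, edgeR adjusted p = 0.0229). Rassf4 (ENSRNOG00000013526), a member of the Ras association domain family, was at 3.97, 6.62, 5.05 and 14.4 CPM in the MI hearts and 5.63, 5.03, 28.0 and 21.5 CPM in the MI + UA hearts, with a slope of 4.74 (SE 0.69, edgeR adjusted p = 0.0187). Mmp3, the protease stromelysin-1, was at 0, 0.325, 0 and 3.13 CPM in the MI hearts and 0, 0, 6.41 and 2.95 CPM in the MI + UA hearts, and its 3 highest hearts were again those of rats 89, 58 and 64. Ighg1, an immunoglobulin heavy chain gene, was at 0, 0, 0 and 0.254 CPM in the MI hearts and 0, 0, 0 and 11.8 CPM in the MI + UA hearts and rests on rat 64. No slope is given for either, because at least 4 hearts were at 0.

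Other genes of the same kind had steep slopes without an adjusted p-value under 0.05. Cxcl13, a chemokine that attracts B cells, was at 9.004, 6.94, 4.56 and 23.8 CPM in the MI hearts and 4.04, 5.45, 13.9 and 33.4 CPM in the MI + UA hearts, with a slope of 5.01 (SE 0.82, edgeR adjusted p = 0.0544). Clec7a, a receptor for fungal glucans on myeloid cells, had a slope of 3.85 (SE 0.66, edgeR adjusted p = 0.067). Gpnmb, a membrane glycoprotein of lipid-loaded macrophages, was at 18.3, 31.99, 14.7 and 74.2 CPM in the MI hearts and 33.6, 17.5, 69.9 and 141 CPM in the MI + UA hearts, and its slope was 4.44 (SE 0.83, edgeR adjusted p = 0.103). Itgam, an integrin of monocytes and neutrophils, was at 5.04, 4.34, 5.70 and 11.9 CPM in the MI hearts and 5.10, 5.15, 9.08 and 19.5 CPM in the MI + UA hearts, with a slope of 3.46 (SE 0.60, unadjusted p = 4.73e-05 in edgeR's test).

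**Figure D1:**
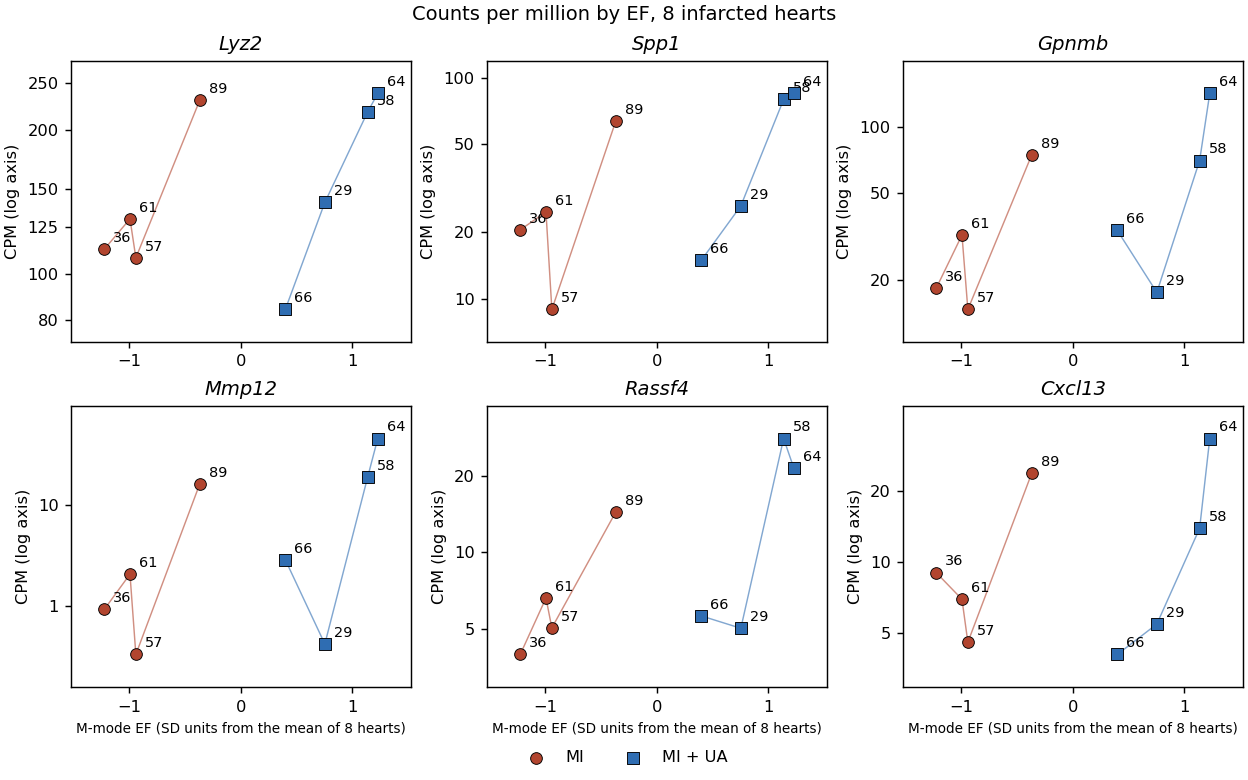
CPM (log axis) of 6 genes in each heart against M-mode EF in SD units from the mean of the 8 hearts; circles are MI, squares MI + UA, numbers are rats, and lines join hearts of the same treatment in order of EF. In each panel rat 89 is the highest MI heart and rats 58 and 64 are the 2 highest MI + UA hearts, while the lower hearts of both treatments cover about the same levels.

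Lists of macrophage genes written after these values were seen describe the pattern without testing it. Of 15 genes of scar macrophages, 14 had a positive slope within treatment and 11 an unadjusted p-value under 0.05, with a median slope of 1.56 beside -0.031 over all genes. Of the 17713 genes tested, 8477 had a positive slope, and 787 of the 17713 (4.44%) had a positive slope with such a p-value. In 14 of the 15, rat 89 was the highest MI heart and rat 58 or 64 the highest MI + UA heart, an order that 14% of all genes tested showed. Of 12 genes of resident macrophages, all were positive, with a median of 0.84, and 5 had an unadjusted p-value under 0.05. With EF alone over 8 hearts, 5 of these 12 were positive, with a median of -0.028, and 6 of the 12 with B-mode EF alone. In both of those fits 0 of the 12 had an unadjusted p-value under 0.05. For the 15 scar macrophage genes, 14 were positive over 8 hearts, with a median of 0.14. With rat 66 counted in MI the medians within treatment were 0.27 for scar and -0.18 for resident macrophage genes. Mrc1, the mannose receptor, was at 33.6, 45.6, 55.0 and 39.0 CPM in the MI hearts and 30.7, 32.4, 47.5 and 40.2 CPM in the MI + UA hearts, where rat 57 and rat 61 exceeded rat 89. Cd163, a scavenger receptor for hemoglobin, had a slope of 0.72 (SE 0.34, unadjusted p = 0.0506 in edgeR's test). Of 7 general macrophage markers, summed to 144, 192, 168 and 183 CPM in MI and 130.2, 143, 175 and 202 CPM in MI + UA, all had a positive slope and 3 an unadjusted p-value under 0.05, led by Cd68, a lysosomal protein, at 1.76 (SE 0.39, unadjusted p = 0.000462 in edgeR's test). Their median was 0.72, and -0.35 with rat 66 counted in MI. With EF alone over 8 hearts 4 of the 7 were positive, with a median of 0.024, and with B-mode EF alone also 4 of the 7. Whether a heart held more of these cells or more of this RNA per cell cannot be told apart in a section. The 2 MI + UA hearts with the high values were also those with the fewest reads in that group, and in MI rat 89 had the second highest number. The part of depth in the result was not tested.

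The upstream sequences of 4 of these genes are shown because the genes moved together across the same hearts. They are the 250 bases before the RefSeq start on build GRCr8, 5′ to 3′ on the strand of the gene, at chr7:54798012-54798261 (minus strand) for Lyz2, chr14:5619805-5620054 (minus strand) for Spp1, chr4:79340878-79341127 (plus strand) for Gpnmb and chr8:12866402-12866651 (plus strand) for Mmp12. Capitals mark matches on either strand to TGANTCA, the AP-1 motif, to GAGGAA, a core of the PU.1 motif, or to CACATG, a core that TFE and MITF factors bind.
Lyz2: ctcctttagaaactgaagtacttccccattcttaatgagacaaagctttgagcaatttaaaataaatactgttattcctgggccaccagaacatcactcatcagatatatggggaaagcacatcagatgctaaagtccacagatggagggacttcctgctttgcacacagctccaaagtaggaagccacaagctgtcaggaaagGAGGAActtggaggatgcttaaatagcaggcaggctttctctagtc
Spp1: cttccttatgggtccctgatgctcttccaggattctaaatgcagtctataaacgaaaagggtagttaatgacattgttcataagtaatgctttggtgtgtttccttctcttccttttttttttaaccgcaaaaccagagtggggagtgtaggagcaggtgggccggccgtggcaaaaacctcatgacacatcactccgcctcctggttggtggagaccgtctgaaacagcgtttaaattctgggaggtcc
Gpnmb: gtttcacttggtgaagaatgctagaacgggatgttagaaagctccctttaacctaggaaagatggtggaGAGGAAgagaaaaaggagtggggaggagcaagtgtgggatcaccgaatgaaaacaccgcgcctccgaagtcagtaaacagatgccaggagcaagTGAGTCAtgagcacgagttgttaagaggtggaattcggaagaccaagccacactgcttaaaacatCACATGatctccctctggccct
Mmp12: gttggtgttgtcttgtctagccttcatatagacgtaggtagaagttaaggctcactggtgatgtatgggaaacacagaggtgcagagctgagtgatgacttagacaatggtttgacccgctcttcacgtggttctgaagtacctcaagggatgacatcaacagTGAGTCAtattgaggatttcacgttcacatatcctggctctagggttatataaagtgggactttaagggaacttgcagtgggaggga
The AP-1 letters stood in the Gpnmb and the Mmp12 window, and in 6.34% of 33469 windows of the same length. GAGGAA stood in the Lyz2 and the Gpnmb window and in 23.3% of all windows, and CACATG in the Gpnmb window and in 12.1%. The Spp1 window held none of the 3. Only these 3 letter strings were searched, so other sites of the same factors would be unmarked. These matches describe the sequence and not binding.

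Most genes of the collagen and fibroblast lists also had positive slopes among hearts of the same treatment, though none of these listed genes had an adjusted p-value under 0.05. The lists do not hold Col2a1, the cartilage collagen called with a negative slope. Of 20 fibrillar and basement membrane collagens, 19 were positive, 12 with an unadjusted p-value under 0.05 against 0 negative. Over all genes tested, 4.44% had such a p-value with a positive and 2.98% with a negative slope. The median slope of the 20 was 0.90, or -0.16 with rat 66 counted in MI. Col1a1, the main fibrillar collagen of scar, was at 577, 535, 372 and 695 CPM in the MI hearts and 335, 447, 786 and 651 CPM in the MI + UA hearts. Its slope was 1.67 (SE 0.45, unadjusted p = 0.00223 in edgeR's test). Col3a1 had a slope of 1.22 and Col12a1, a collagen that coats fibrils, of 2.90, with rat 58 highest at 66.9 CPM. Over 8 hearts the median of the 20 was 0.10, with 0 genes at an unadjusted p-value under 0.05.

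Of 8 fibroblast markers, all were positive and 7 had an unadjusted p-value under 0.05 within treatment. Over all genes tested, 4.44% had such a p-value with a positive and 2.98% with a negative slope. The median of the fibroblast markers was 1.09, or 0.017 with rat 66 counted in MI. Their summed level was 3016, 3117, 2385 and 3859 CPM in MI and 2407, 2980, 3895 and 3702 CPM in MI + UA, highest in rats 58, 89 and 64. Lum, a proteoglycan of collagen fibrils, was at 127, 129, 105 and 176 CPM in the MI hearts and 121, 153, 170.2 and 187 CPM in the MI + UA hearts, with a slope of 1.21 (SE 0.27, unadjusted p = 0.000439 in edgeR's test). Among 53 scar matrix proteins and enzymes, 42 were positive and 18 passed at an unadjusted p-value under 0.05, among them Spp1. The median of these 53 was 0.61, 0.31 without rat 66 and -0.22 with rat 66 counted in MI. Fn1, which encodes fibronectin, had a slope of 2.98 (SE 0.68, unadjusted p = 0.000553 in edgeR's test). Postn, the periostin of activated fibroblasts, was at 29.1, 28.96, 14.98 and 38.2 CPM in the MI hearts and 14.2, 16.3, 42.4 and 49.2 CPM in the MI + UA hearts. Of 26 matrix proteases and their inhibitors, 20 were positive and 13 passed at an unadjusted p-value under 0.05, among them Mmp3, and no gene passed with a negative slope, while their median moved from 0.67 to 0.037 with rat 66 counted in MI. Ctsk, a collagen-cleaving cathepsin, had a slope of 1.82, Plau, the urokinase, of 3.47, and Timp4, a metalloprotease inhibitor, of 1.65. For the 6 myofibroblast and scar markers the median slope was 0.40, it was -0.21 without rat 66 and -0.46 with that rat counted in MI.

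Muscle genes had the opposite sign. Of 34 sarcomere genes, 33 had a negative slope within treatment, as had 9236 of the 17713 genes tested. An unadjusted p-value under 0.05 with a negative slope was reached by 18 of the 34, against 2.98% of all genes. The median of the sarcomere genes was -0.54 and became 0.082 with rat 66 counted in MI. None passed the adjusted threshold. Flnc, the filamin of striated muscle, was at 318, 248, 398 and 232 CPM in the MI hearts and 375, 316, 213 and 237 CPM in the MI + UA hearts, and its slope was -1.37 (SE 0.36, unadjusted p = 0.00196 in edgeR's test). Synpo2l, a Z-disc protein, had a slope of -0.95, Smyd1, a myosin chaperone and methyltransferase, of -0.75, and Ttn, the giant spring of the sarcomere, of -0.63. The 9 cardiomyocyte markers were all negative, with a median of -0.44, or 0.091 with rat 66 counted in MI, 4 with an unadjusted p-value under 0.05, and their sum was 42344, 38306, 44768 and 39665 CPM in MI and 51801, 44081, 39911 and 39588 CPM in MI + UA. Xirp2 and Ankrd1, which muscle makes under strain, had slopes of -1.24 and -0.997. CPM values share 1 total per library, so a higher share of scar RNA and a lower share of muscle RNA cannot be told apart.

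Heat shock genes had the same sign as muscle genes. Of 19 genes, 18 had a negative slope within treatment and 6 an unadjusted p-value under 0.05. All 6 were negative, where 2.98% of all genes tested had a negative slope with such a p-value. The median of the list was -0.70 and became 0.45 with rat 66 counted in MI. Hspb1, a small chaperone, was at 98.7, 73.5, 143 and 78.1 CPM in the MI hearts and 190.0, 175, 58.6 and 91.6 CPM in the MI + UA hearts, with a slope of -2.04 (SE 0.65, unadjusted p = 0.00711 in edgeR's test). Over 8 hearts the median of the list was 0.13 and 13 of 19 genes were positive. For Hspb1, rats 66, 29 and 57 were highest. Energy genes had smaller slopes. The median within treatment was -0.23 over 34 nuclear genes of complex I, -0.26 over 17 of the ATP synthase, -0.34 over 26 of the TCA cycle and pyruvate oxidation, and -0.091 over 35 of fatty acid oxidation. Unadjusted p-values under 0.05 numbered 0, 0, 3 (all negative) and 2 (both positive) in these lists. The 3 are 11.5% of their list, against 2.98% negative over all genes. The 2 are 5.71% of theirs, near the 4.44% positive over all genes. Over 8 hearts no gene of the 4 lists had an unadjusted p-value under 0.05, and the highest median was 0.059. The 13 mitochondrially encoded genes were all negative within treatment, with a median of -0.40 and 1 unadjusted p-value under 0.05. With rat 66 counted in MI all 5 medians turned positive, to 0.11 for complex I, 0.15 for the ATP synthase, 0.17 for the TCA cycle, 0.25 for fatty acid oxidation and 0.19 for the mitochondrially encoded genes. Fatty acid oxidation also turned without rat 66, to 0.12, and was -0.45 without rat 89. The mitochondrially encoded median was -0.17 without rat 66 and -0.68 without rat 36. Without rat 58 the complex I median was -0.11, and without rat 66 the TCA cycle median was -0.20 and the heat shock median -0.46.

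Antigen presentation genes and genes of monocytes and neutrophils, the second list written after the values were seen, were mostly positive within treatment. In this paragraph a gene passed where its unadjusted p-value was under 0.05, as did 4.44% of all genes with a positive and 2.98% with a negative slope, and no gene of these lists passed after adjustment. Of 12 antigen presentation genes 10 were positive, 3 with an unadjusted p-value under 0.05 and 0 negative ones, with a median of 0.69, or 0.29 without rat 66. Of 9 monocyte and neutrophil genes 8 were positive, 4 with an unadjusted p-value under 0.05. Of 28 chemokines and cytokines 21 were positive within treatment, 6 of them with an unadjusted p-value under 0.05, and 1 gene, Cxcl9, passed with a negative slope of -1.92 (SE 0.62, unadjusted p = 0.00735 in edgeR's test). Cxcl9 is induced by interferon-gamma, and Gbp1, a guanylate-binding protein of the same response, was at 51.4, 29.3, 33.5 and 26.3 CPM in the MI hearts and 38.4, 29.9, 26.7 and 24.6 CPM in the MI + UA hearts with a slope of -1.55 (SE 0.33, unadjusted p = 0.000339 in edgeR's test). Of 27 interferon response genes, 0 had an unadjusted p-value under 0.05 within treatment, and 4 had one over 8 hearts, all negative. The 4 are 14.8% of the list, against 2.16% negative over all genes in the fit over 8 hearts. Among 19 complement genes 14 were positive, 7 passed with a positive and 1 with a negative slope, and C3, the central component, was highest in rat 89. Of 38 mitophagy genes 10 were positive and 2 passed, both negative. The median was -0.11, or -0.18 without rat 36 and -0.076 without rat 66. Of 27 potassium and sodium channel genes 6 were positive and 8 passed with a negative slope against 1 with a positive one, Scn7a, and the median was -0.40. Gja1, the gap junction protein of the ventricle, had a slope of -0.82 (SE 0.28, unadjusted p = 0.0106 in edgeR's test). Of 28 cell cycle genes 22 were positive, 1 of them passed, and the median was 0.41. With rat 66 counted in MI the median changed sign for antigen presentation (-0.24), chemokines and cytokines (-0.11), complement (-0.064), mitophagy (0.053), channels (0.0014, and -0.24 without rat 58) and the cell cycle (-0.15). The plot of list medians shows the lists of calcium, signalling, stress, clock and regulator genes, which lay between -0.34 (PGC-1, PPAR and ERR regulators) and 0.30 (TGF-beta and fibroblast activation). The regulator median was -0.53 without rat 89, -0.22 without rat 66 and -0.0077 with rat 66 counted in MI. The TGF-beta median was 0.16 without rat 64 and -0.050 with rat 66 counted in MI.

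**Figure D2:**
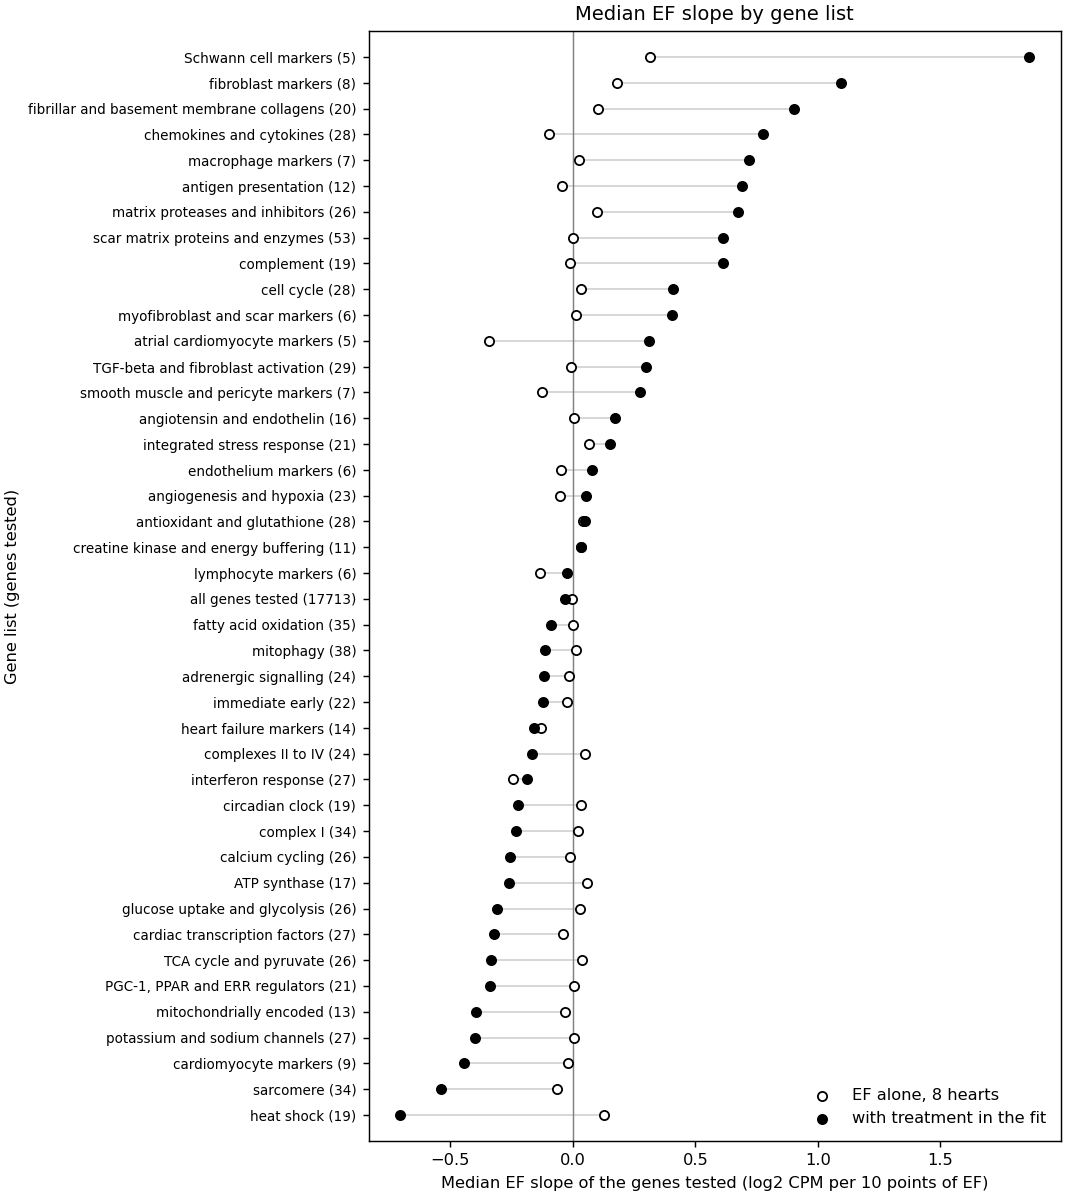
Median EF slope (log2 CPM per 10 points of M-mode EF) of each gene list with at least 5 genes tested, number of genes in brackets, leaving out the scar macrophage, resident macrophage, monocyte and neutrophil, and cartilage lists written after the values were seen; open circles are the fit with EF alone, filled circles the fit with treatment. The filled circles run from heat shock and sarcomere genes on the left to Schwann cell, fibroblast and collagen genes on the right, while open circles of most lists lie near 0.

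When treatment was left out of the fit, 1 of 17713 genes passed the adjusted threshold (0.00565%), Col2a1 with a negative slope, and 744 had an unadjusted one (4.2%), 362 positive (2.04%) and 382 negative (2.16%). Col2a1 (ENSRNOG00000058560), the collagen of cartilage, was at 30.9 CPM in rat 36, the heart of lowest EF, at 0.0586 CPM in rat 66, and at 0 in the other 6. Its call rests on rat 36, and no slope is given. Without rat 36 no gene passed in edgeR's test at the adjusted threshold and 787 had an unadjusted p-value under 0.05, against 0 and 496 by DESeq2 over 8 hearts.

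The 2 myosin heavy chains had slopes of opposite sign over the 8 hearts. Myh7 (ENSRNOG00000016983), the slow isoform, was at 4429, 2823, 4353 and 3571 CPM in the MI hearts and 2959, 3205, 2269 and 2694 CPM in the MI + UA hearts, with a slope of -0.48 (SE 0.13, unadjusted p = 0.00203 in edgeR's test). Rat 61 lay among the MI + UA hearts, so the treatments overlapped. Myh6 (ENSRNOG00000025757), the fast adult isoform, was at 2768, 2986, 2522 and 3273 CPM in the MI hearts and 4399, 3652, 3403 and 3613 CPM in the MI + UA hearts, with a slope of 0.34 (SE 0.11, unadjusted p = 0.00853 in edgeR's test). For Myh6 the treatments did not overlap, as in 2.33% of all genes tested. Within treatment the slope of Myh7 was -0.55 (SE 0.35) and that of Myh6 -0.088 (SE 0.27), and the sign of Myh6 differed between the fits. Neither gene had an adjusted p-value under 0.05 in either fit. Leaving out each heart in turn gave slopes of Myh7 with EF alone from -0.60 to -0.39. For Myh6 within treatment it gave slopes from -0.64 to 0.37, with the sign kept in 6 of 8 fits.

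Of the 14 heart failure markers tested, 5 had a positive slope over 8 hearts, and unadjusted p-values under 0.05 were reached by Myh7, Myh6 and Lgals3. Over all genes tested, 2.04% had such a p-value with a positive and 2.16% with a negative slope. Nppa, the atrial natriuretic peptide, was at 332, 359, 498 and 188 CPM in the MI hearts and 191, 359, 262 and 244 CPM in the MI + UA hearts, with a slope of -0.41 (SE 0.21, unadjusted p = 0.0701 in edgeR's test). Within treatment it was -0.79, and -2.19 without rat 66 (unadjusted p = 0.00284 in edgeR's test). Rat 89 and rat 66 were lowest, and they lie next to each other in EF. Nppb, the B-type peptide, was at 212, 195, 379 and 182 CPM in the MI hearts and 269, 268, 181 and 198 CPM in the MI + UA hearts, with rat 57 above all others, and its slope was -0.19 (SE 0.19, unadjusted p = 0.354 in edgeR's test), or -1.03 within treatment. Ankrd1 had a slope of -0.26 (SE 0.14, unadjusted p = 0.072 in edgeR's test) over 8 hearts and of -0.997 (SE 0.34, unadjusted p = 0.0109 in edgeR's test) within treatment. Lgals3, which macrophages and fibroblasts secrete, was at 5.34, 9.98, 4.88 and 15.9 CPM in the MI hearts and 8.68, 6.27, 16.6 and 26.7 CPM in the MI + UA hearts. It was positive in both fits, 0.98 over 8 hearts and 3.40 within treatment. The remaining markers gave slopes over 8 hearts of 0.35 for Postn, -0.15 for Ccn5, -0.27 for Ccn2, -0.11 for the interleukin 33 receptor Il1rl1, 0.0012 for Timp1, 0.091 for the fetal actin Acta1 and -0.11 for Xirp2. Within treatment the slopes were 2.66 for Postn, 1.302 for Ccn5, -0.23 for Ccn2, 0.87 for Il1rl1, 0.56 for Timp1, -1.22 for Acta1 and -1.24 for Xirp2, so Ccn5, Il1rl1 and Acta1 had the other sign. Nppc was at most 0.254 CPM in any heart.

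**Figure D3:**
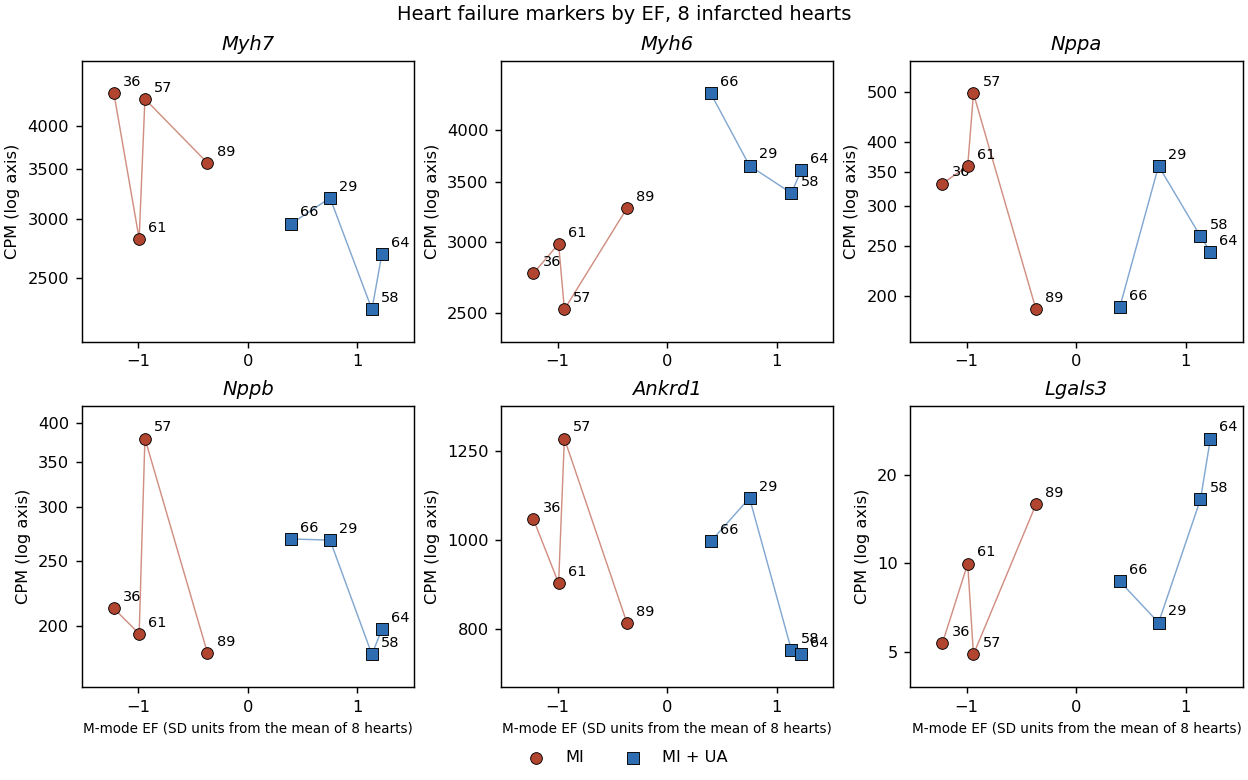
CPM (log axis) of 6 heart failure markers in each heart against M-mode EF in SD units; circles are MI, squares MI + UA, and lines join hearts of the same treatment in order of EF. The 4 MI + UA hearts lie above the 4 MI hearts for Myh6, rat 61 lies among the MI + UA hearts for Myh7, and rats 64, 58 and 89 are the 3 highest hearts for Lgals3.

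The genes of smallest p-value over 8 hearts were, among positive slopes, Fras1, Slitrk6, RGD1559482, Cerkl, Olfml3, Alcam, AY172581.2, Cadm2, Tenm3 and Scn7a, with slopes from 0.46 to 1.38. Alcam, an adhesion molecule of leukocytes and other cells, was at 13.3, 20.7, 15.5 and 24.3 CPM in the MI hearts and 18.3, 20.4, 37.0 and 29.8 CPM in the MI + UA hearts, with a slope of 0.67 (SE 0.17, unadjusted p = 0.00169 in edgeR's test) over 8 hearts and of 1.86 (SE 0.37, unadjusted p = 0.000169 in edgeR's test) within treatment. Olfml3, a secreted matrix protein, was at 9.61, 8.57, 9.61 and 12.1 CPM in the MI hearts and 11.7, 12.02, 16.3 and 14.5 CPM in the MI + UA hearts, with a slope of 0.50 (SE 0.13, unadjusted p = 0.00121 in edgeR's test). Fras1, a protein of basement membranes, had the steepest slope of the 10 but was highest in rat 29, at 5.62 CPM. The treatments did not overlap for Slitrk6 and Cerkl, an order found with MI + UA higher in 1.1% of all genes tested, and overlapped for the other 8.

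Of these 10 genes, 8 were highest in rat 58. Scn7a, a sodium channel of glia and nerve, was at 61.3, 86.3, 79.3 and 89.7 CPM in the MI hearts and 86.9, 101, 372 and 88.1 CPM in the MI + UA hearts. Cadm2, a synaptic adhesion molecule, Slitrk6, a transmembrane protein of neurons, and Cerkl were also highest there, at 26.8, 22.4 and 9.61 CPM. Markers of Schwann cells, the glia of peripheral nerve, were highest in the same heart. The 5 markers summed to 22.2, 25.9, 20.4 and 32.3 CPM in MI and 21.9, 27.6, 66.1 and 28.1 CPM in MI + UA, and Sox10, the factor that defines these cells, was at 9.23, 8.35, 7.49 and 11.9 CPM in the MI hearts and 9.203, 11.2, 29.4 and 12.1 CPM in the MI + UA hearts. The whole list had a median slope of 0.32 over 8 hearts. Without rat 58 the slope of Scn7a was 0.28, of Cadm2 0.51 and of Slitrk6 0.67. The part of nerve tissue in these slopes was not tested.

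The negative side held, beside Col2a1 and Myh7, the genes Pan2, Tmem179, Phf24, Snrk, Slc29a2, Jam3, Trim21 and Adam33, with slopes from -0.59 to -0.33. Pan2, a subunit of the deadenylase that trims poly(A) tails, was at 18.5, 17.6, 18.2 and 18.0 CPM in the MI hearts and 14.6, 14.2, 11.6 and 12.5 CPM in the MI + UA hearts, with a slope of -0.45 (SE 0.10, unadjusted p = 0.000639 in edgeR's test). All 4 MI hearts lay above all 4 MI + UA hearts, and the slope within treatment was -0.35 (SE 0.30). The treatments were apart in the same way for Tmem179, Snrk, Jam3 and Trim21, an order found in 1.23% of all genes tested. Slc29a2, a nucleoside transporter, and Adam33, a membrane protease, had steeper slopes within treatment, -1.11 and -1.47, than over 8 hearts. So had Phf24 (-0.96 against -0.50), Tmem179 (-0.65 against -0.47) and Myh7 (-0.55 against -0.48), while those of Pan2, Snrk, Jam3 and Trim21 were shallower.

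**Figure D4:**
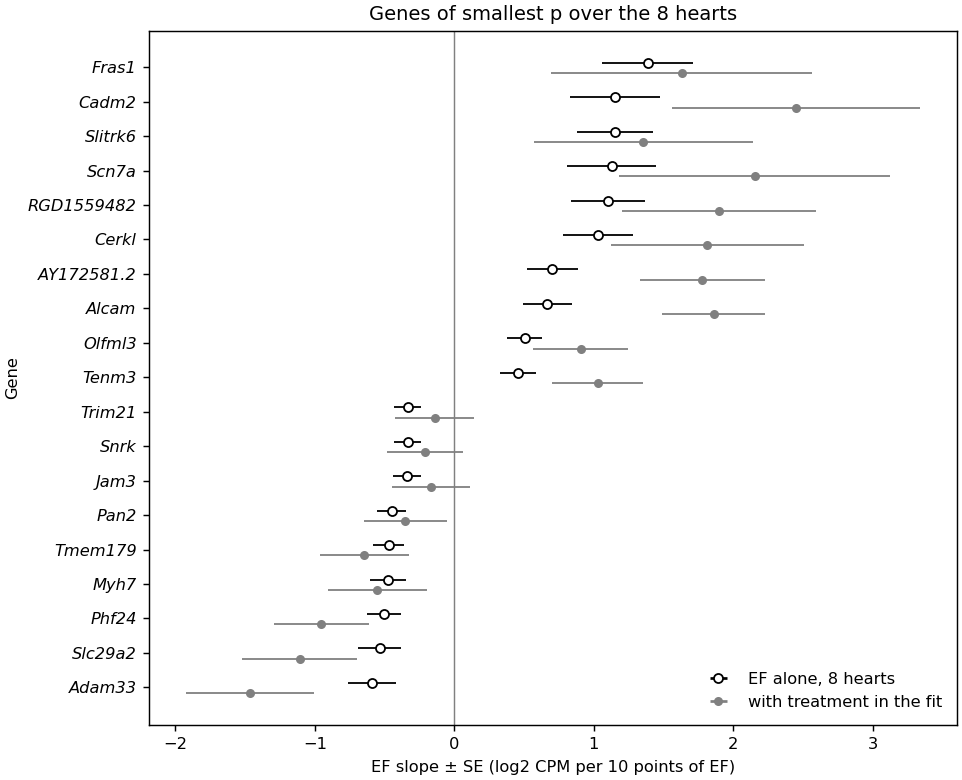
EF slope and standard error (log2 CPM per 10 points of M-mode EF) of the 19 genes named by smallest p-value over 8 hearts, without Col2a1. Open points are the fit with EF alone and grey points the fit with treatment. Genes were named only if both fits gave the same sign, so that agreement was fixed by the choice. Standard errors are wider with treatment in the fit, and for Trim21, Snrk and Jam3 they reach across 0.

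With treatment in the fit, the negative genes of smallest p-value, among those that the naming rule kept, were Col2a1, Bcl11a, RGD1565462, Gbp1 and Cntnap1. ENSRNOG00000002618, left out for want of a symbol, had a slope of -1.41 (SE 0.27, unadjusted p = 9.93e-05 in edgeR's test). Bcl11a, a transcriptional repressor of blood and nerve cells, was at 5.11, 4.01, 4.72 and 1.10 CPM in the MI hearts and 5.10, 2.96, 2.14 and 1.97 CPM in the MI + UA hearts, with rat 89 lowest, and its slope was -3.74 (SE 0.68, unadjusted p = 6.53e-05 in edgeR's test). RGD1565462 was at 27.6, 22.0, 6.51 and 3.05 CPM in the MI hearts and 9.38, 11.3, 3.34 and 3.93 CPM in the MI + UA hearts, with a slope of -5.14 (SE 0.99, unadjusted p = 0.000128 in edgeR's test). Cntnap1, an axon-glia contact protein, had a slope of -1.54 (SE 0.34, unadjusted p = 0.000393 in edgeR's test) within treatment but of 0.12 over 8 hearts.

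B-mode EF of the same examination put rats 89, 58 and 64 at the top of all 8 hearts without reference to treatment. In the fit with B-mode EF alone, 9 of 17713 genes passed the adjusted threshold (0.0508%), and none of them was Col2a1. The 7 that rose with EF were Mmp12, Rassf4, Spp1, Mmp3, Il1rn, Clec7a and Gpnmb, and the 2 that fell were RGD1565462 and ENSRNOG00000002618, which has no symbol. The slope per 10 points of B-mode EF was 1.64 (SE 0.23, edgeR adjusted p = 0.0149) for Spp1, 1.69 (SE 0.26, edgeR adjusted p = 0.0263) for Gpnmb and 2.94 (SE 0.40, edgeR adjusted p = 0.0149) for Il1rn, the interleukin 1 receptor antagonist, which was at 1.14, 1.08, 0.814 and 10.6 CPM in the MI hearts and 3.69, 0.592, 7.34 and 19.9 CPM in the MI + UA hearts. Lyz2 had an edgeR adjusted p of 0.0887. B-mode EF was measured in the same rats, so these counts are not independent of the M-mode results.

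Rat 66 decided part of the result within treatment. Without it, 7 of 17329 genes passed the adjusted threshold (0.0404%), 4 of them, Col2a1, Lyz2, Ighg1 and Mmp12, among the 7 called with all 8 hearts. The other 3 were Il1rn, Ccl9 and RGD1565462. The slope without rat 66 was 2.46 for Lyz2, 4.53 for Spp1 and 13.43 for Mmp12, and the list medians were 0.77 for collagens, 0.95 for fibroblast markers and -0.41 for sarcomere genes. With rat 66 counted in MI, as the echocardiography record lists it, 0 genes passed in edgeR's test and 578 had an unadjusted p-value under 0.05. Rat 66 then has the highest EF of the MI group, where Lyz2 was lower in it than in the 4 labelled MI hearts and Gpnmb and Mmp12 were higher in it than in rats 36, 61 and 57. The slopes became 0.18 for Lyz2, 1.03 for Spp1, 1.34 for Rassf4 and 4.31 for Mmp12. Of 50 gene lists, 32 changed the sign of their median. The calls and most list directions within treatment therefore depend on the label of 1 rat. The fit with B-mode EF alone uses no treatment label, but its EF of rat 66 comes from the echocardiography record that conflicts with the sample label. B-mode EF was also higher in MI + UA in 14 of 16 pairs, and no B-mode fit without rat 66 was run.

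Rats 36, 89 and 64 also carried calls. Of the 7 genes called within treatment, 3 were called without rat 36 (Lyz2, Ighg1 and Spp1), 3 without rat 89 (Col2a1, Lyz2 and Ighg1) and 3 without rat 64 (Col2a1, Lyz2 and Mmp3), and all 7 without rat 57, 61, 29 or 58. Leaving out rat 89 raised the median slope to 1.20 for matrix proteases, 1.29 for general macrophage markers, 1.27 for resident macrophage genes and 0.98 for complement, which was 0.33 without rat 64. The number of genes called rose to 24 without rat 57, 13 without rat 61 and 13 without rat 29. With the rank of EF in place of its value, Col2a1 and Ighg1 were the 2 genes called and Lyz2, Spp1, Mmp12, Rassf4 and Mmp3 were not. DESeq2 called Lyz2, Spp1 and Rassf4 of the 7, and edgeR's expression filter left Lyz2. Lyz2 was called in each of the 8 fits that left out a heart, with slopes from 2.46 to 3.10. A difference of slope between MI and MI + UA passed the adjusted threshold for 0 genes in edgeR's interaction test, where 544 genes, or 3.07%, passed without adjustment. Without rat 66, 2 genes passed (0.0115%). For Spp1 the unadjusted p of the difference was 0.154, for Lyz2 0.108 and for Mmp12 0.921.

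The graded variation among the hearts, found without EF, set the same 3 hearts apart. Over the 500 most variable of 12100 genes with an average log2 CPM of at least 1, 30.1% of the variance lay on the first principal component, 17.6% on the second and 15.4% on the third. Scores on the first were 4.44, -1.92, 17.3 and -9.64 in MI and 5.13, 6.74, -13.1 and -8.97 in MI + UA, in order of EF. Rats 58, 89 and 64 formed 1 end and rat 57 the other, and the treatments overlapped. Genes that weighed most toward rats 58, 89 and 64 included Mmp12, Il1rn, Spp1, Gpnmb, Rassf4 and Cxcl13, the matrix genes Tnc and Tnn, the Wnt antagonists Sfrp4 and Sfrp5, and Adam12. The other end held the chaperones Hsph1, Dnajb1 and Hspb1, and all 5 heat shock genes among the 500 lay on that side, as did 198 of the 500 in all. The second component set rat 58 and rat 57 against rats 64, 29 and 66, and the third rested on rat 36, with Col2a1, Acan and Col11a2 among its leading genes.

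**Figure D5:**
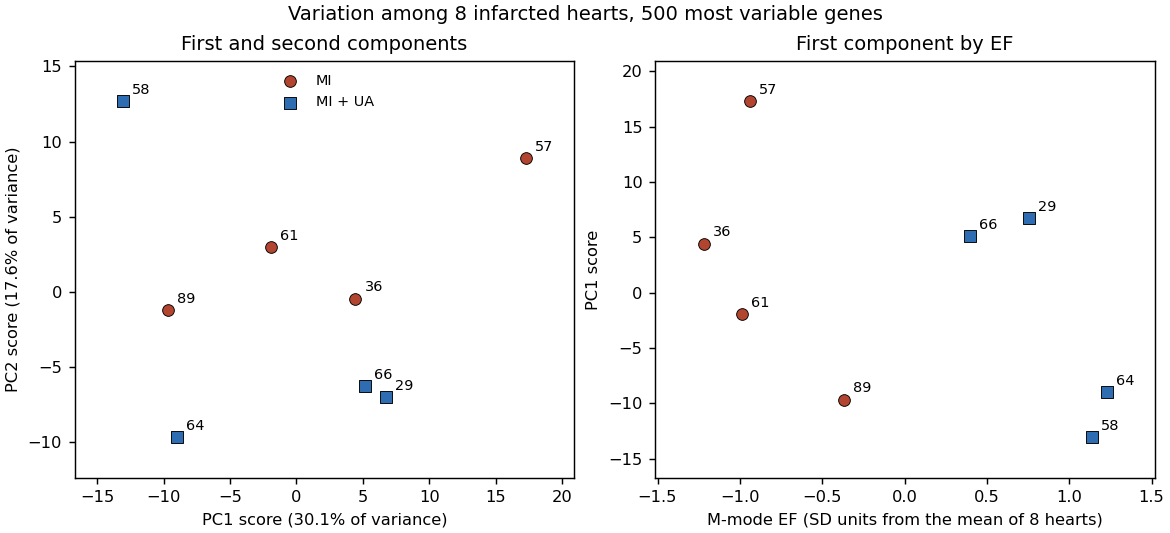
Left, scores of the 8 hearts on the first and second principal components of the 500 most variable genes; right, the first component against M-mode EF in SD units. Rats 89, 58 and 64, the hearts of highest EF in their treatments, have the 3 lowest scores on the first component.

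Some cartilage genes, Col2a1 among them, were highest in rat 36. Of 12 genes of a list written after the values were seen, 11 had a negative slope over 8 hearts and 3 an unadjusted p-value under 0.05. All 3 were negative, where 2.16% of all genes tested had a negative slope with such a p-value. Acan, the main cartilage proteoglycan, was at 9.61, 0.651, 0 and 1.36 CPM in the MI hearts and 0.117, 2.07, 1.87 and 0.421 CPM in the MI + UA hearts, and Hapln1, a link protein of cartilage, at 2.52, 0.434, 0.326 and 0.508 CPM in the MI hearts and 0.0586, 0.355, 0.133 and 0.281 CPM in the MI + UA hearts. Adipoq, the adipocyte hormone, was likewise highest in rat 36, at 2.21 CPM against at most 0.296 in the other hearts. Plin4, a lipid droplet protein that muscle also makes, was instead at 136, 132, 146 and 142 CPM in the MI hearts and 171, 144, 123 and 108.01 CPM in the MI + UA hearts, with rat 66 highest. The part of cartilage and fat in other results of rat 36 was not tested.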

How the data were processed

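Per the labels, heart sections gave 1 strand-specific library per rat. The molecule field names polyA RNA, and the protocol text ribosomal RNA depletion. The authors deposited a table of raw read counts per gene. Per the submitters' processing notes, STAR 2.6.1c, HTSeq, MultiQC 1.8 and build mRatBN7.2 were used. Counts of the 8 infarcted hearts were fitted as deposited, after 5 summary lines were left out, with edgeR 4.0.16 (R 4.3.3, limma 3.58.1), TMM scaling and the quasi-likelihood test with Benjamini-Hochberg adjustment, over 17713 genes with at least 10 counts in total, of 30560.

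M-mode EF was read from the study's echocardiography record by rat number, and its values are not printed. The fits held EF alone, EF with treatment, and their interaction, and the threshold was an adjusted p of 0.05. CPM values are TMM-scaled, and log2 values for components used a prior count of 1. Reads on genes numbered 6819444 to 19031695 per heart. Genes that share reads with near-identical copies may be split by the counting. Scripts were tested on simulated data.

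Genes were named by rule. These were up to 10 per direction of smallest p over 8 hearts and up to 5 within treatment, each with a symbol, an average of 1 or more on the log2 CPM scale, and the same sign without rat 66 (over 8 hearts also within treatment). All heart failure markers, and in each other list up to 2 members per direction and any member called, were added. Itgam, Col1a1, Col3a1, Ctsk, Timp4, Fn1, Synpo2l, Smyd1, Ttn, Hspb1, Mrc1, Gja1, Hapln1, Adipoq, Gpnmb, Clec7a, Il1rn, Ighg1 and the genes of principal components were named outside these rules, after their values were seen. The members, the lists (869 of 932 symbols in the table) and the tests were chosen with earlier results of these data known. The lists of scar macrophages, resident macrophages, monocytes and neutrophils, and cartilage were written after the values were seen.

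Alternatives were B-mode EF, the rank of EF, DESeq2 1.42.0, DESeq2 size factors, TMM without mitochondrially encoded genes, other count filters, leaving out each heart, and rat 66 counted in MI. Figures used Python 3.11.15 and matplotlib 3.10.9. Upstream sequences came from RefSeq on GRCr8.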

Additional observations from a re-analysis of the deposited data

Results flagged for a closer look

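In 11 of 126 groups of 4 hearts, 1 heart lay so far from the other 3 that its gap to the nearest, as a share of the whole range, was above Dixon's 95% critical value. Chance gives about 1 in 20 such groups. Levels here are log2 CPM unless a percent is named.

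For libraries, the share of reads on genes was 43.3% in rat 61 against 44.6% in the nearest MI heart (share of the range 0.853), and 42.9% in rat 58 against 46.7% in the nearest MI + UA heart (0.886). Rat 58 also stood apart from the other MI + UA hearts on the second principal component (0.847).

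Among cell type lists, rat 57 was the lowest MI heart for myofibroblast and scar markers (2.55 against 3.69, share of the range 0.84) and for endothelium markers (6.51 against 6.71, 0.858). Among genes, rat 57 was the highest MI heart for Acta1 (8.49 against 8.10, 0.901), and rat 89 was the lowest MI heart for Bcl11a (0.25 against 2.04, 0.839) and the highest for RGD1559482 (1.35 against 0.36, 0.87). Scn7a was highest in rat 58 (8.54 against 6.66, 0.897). For Col2a1 the gap was the whole range (1) both in rat 36 among MI and in rat 66 among MI + UA, since the other hearts of each treatment had no read. The rat 66 value rests on 0.0586 CPM.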

How the results depend on the processing

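No paired analysis was possible because each rat gave a single heart, in 1 treatment. Calls over 8 hearts (1 with edgeR) numbered 2 with the rank of EF, 0 with DESeq2, 0 with edgeR's expression filter and 9 with B-mode EF, and 0 to 2 when a heart was left out. Calls within treatment (7) numbered 2 with the rank (Col2a1 and Ighg1), 47 with DESeq2, 1 with the expression filter (Lyz2), 62 with genes of at least 1 count, 0 with rat 66 in MI, and 3 to 24 when a heart was left out. The interaction gave 2 calls without rat 66. DESeq2 size factors and TMM without mitochondrially encoded genes gave 1 and 7 calls, as in the report. Of 449 slopes of 41 named genes, 21 changed sign, in 11 genes. With B-mode EF these were Cntnap1 (-0.26), Ccn5 (0.034), Il1rl1 (0.079) and Acta1 (-0.43). With treatment in the fit they were Cntnap1 (-1.54), Ccn5 (1.302), Il1rl1 (0.87), Acta1 (-1.22), Nppc (1.58) and Myh6 (-0.088). Leaving out a heart gave -0.00135 to 1.07 for Cxcl13, -0.31 to 0.083 for Nppb, -0.23 to 0.12 for Timp1, -0.31 to 0.059 for Ccn5, -0.51 to 0.11 for Ccn2, -0.30 to 0.34 for Acta1 and -0.17 to 0.018 for Xirp2. Within treatment, Cntnap1 became 0.17 with rat 66 in MI. Of 550 list medians, 52 moved by more than the spread used. The cause of these changes was not tested. Nppc, Mmp3, Ighg1 and Col2a1 have few or no reads in most hearts.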
